A study of Homo sapiens with 12 samples.

Results

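The 6 genes described here have known roles in cell invasion and were measured in HCT116, a line of human colorectal cancer, in which growth signals run through the kinases MEK and ERK. They were the urokinase gene PLAU and its receptor gene PLAUR, the laminin chain gene LAMB3, the calcium-binding protein gene S100A4, the membrane-bound metalloproteinase gene MMP14 and MYEOV, a gene of chromosome band 11q13 with a poorly understood product. They were chosen by symbol as invasion-linked genes downstream of ERK, with changes in these same libraries already known, so their input and footprint changes are given as a description without p-values. All 6 were among the 15798 genes listed and among the 10663 tested, which required 10 or more counts in 3 or more input libraries.

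Cells had received either the MEK inhibitor trametinib at 100 nM or its solvent DMSO for 24 h. Ribosome profiling (Ribo-seq) gave 2 kinds of library, cytoplasmic input RNA as a measure of mRNA abundance and ribosome-protected fragments, or footprints, as a measure of the ribosomes on each mRNA. There were 3 replicates in each of 4 groups, 12 libraries in all, and all cells had received cycloheximide, which halts ribosomes, shortly before lysis. All samples came from 1 established line kept in culture, so that neither stroma nor vessels took part.

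Urokinase is a secreted protease that cuts plasminogen to plasmin, and plasmin digests fibrin and other matrix proteins. Its receptor, which is anchored in the membrane by a lipid, holds the protease at the cell surface, where protease inhibitors block it and the endocytic receptor LRP1 removes the blocked complex. Laminin-332, which contains the chains LAMA3 and LAMB3, anchors epithelial cells to the basement membrane through integrins. MMP14 cuts collagen at the cell surface and activates other metalloproteinases. S100A4 binds myosin and is known from metastatic and mesenchymal cells. In carcinoma cells, ERK acts on such genes in part through transcription factors of the AP-1 and ETS families.

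In the Gencode annotation of GRCh38, PLAU lies on chromosome 10 from 73909177 to 73917496 on the plus strand and PLAUR on chromosome 19 from 43646095 to 43670547 on the minus strand. LAMB3 (209614870 to 209652425) and S100A4 (153543613 to 153550136) both lie on the minus strand of chromosome 1. MYEOV lies on chromosome 11 from 69294151 to 69341682, and MMP14 on chromosome 14 from 22836560 to 22849041, both on the plus strand. Reads were counted in coding exons only. None of the genes that overlap a member on the map shared a coding base with it, the S100A4 neighbor S100A3 and the antisense transcript C10orf55 of PLAU included.

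RefSeq promoter windows of GRCh38.p14, which run from 250 bases before to 50 after a start site, were matched by symbol for 5 of the 6 genes and made up 8 windows. They were searched on both strands for the AP-1 motif TGANTCA, the ETS motif CGGAAG and the TATA motif TATAAA, which stood in 7.71%, 19.46% and 11.53% of all 35116 windows of that length. No match overlapped another. An AP-1 match was found in the window of PLAUR and in 1 of 3 windows of LAMB3, an ETS match in 1 of 2 windows of PLAU and a TATA match in that of S100A4, while the window of MMP14 held none. The 30 bases around each match are shown because they carry the letters that ERK-responsive factors, or the basal machinery, can bind, with the match in capitals.
PLAU, ETS: ttgtgagcgttgCGGAAGcacgcggggtcc
PLAUR, AP-1: tcacaactccaTGAGTCAgggccgagccag
LAMB3, AP-1: gtcagccactcTGACTCAttcactttgggc
S100A4, TATA: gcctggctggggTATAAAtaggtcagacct
The stretches are chr10:73911001-73911030 (plus strand), chr19:43670337-43670366, chr1:209651423-209651452 and chr1:153545820-153545849 (all minus strand). The matches start at -119, -186, -67 and -31 from the start site. A match is a string of letters and no evidence of binding, which was not measured here.

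The depth ranged from 2276693 to 2845568 counts per input library and from 10127477 to 19181588 counts per footprint library, so input was the shallower assay. Levels are given as counts per 1000000 (CPM) after TMM scaling within each assay, and changes as log2 of trametinib over DMSO with standard error (SE) or 95% interval from edgeR. The study calls its replicates biological, but the labels do not say whether they came from separate cultures, so p-values measure the spread between these libraries. As bulk libraries, they do not tell fewer expressing cells from less mRNA per cell. As a check of treatment, the ERK feedback genes DUSP6 and SPRY4 were near 0 in trametinib. DUSP6 fell from 235 ± 34.8 to 1.11 ± 1.03 CPM in input (SD, n = 3, edgeR adjusted p = 3.31e-08) and SPRY4 from 75.9 ± 25.2 to 0.562 ± 0.214 (edgeR adjusted p = 1.75e-07). All 5 epithelial markers (EPCAM, CDH1, KRT8, KRT18 and KRT19) were counted in every group. Their summed level was 4900 to 7513 CPM in DMSO input and 8209 to 10420 in trametinib input. Of 6 fibroblast markers 5 were listed, with a sum of 7.61 to 14.2 CPM in DMSO input and 21.0 to 28.1 CPM in trametinib input, while COL1A2 had 2 and DCN had 1 summed count over all 12 libraries. The difference lay in COL3A1, a collagen gene named after its values were seen, with 1 summed input count in DMSO and 98 in trametinib. The 6 leukocyte markers summed to 0 to 0.397 CPM in DMSO input and 2.43 to 3.51 in trametinib input, and to 0.757 to 1.04 CPM in DMSO footprints and 2.80 to 3.75 in trametinib footprints, low sums that did not overlap between treatments. The part of these markers in the results was not tested.

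DMSO replicate 1 was the library farthest from its group in both assays, and PLAU, LAMB3 and PLAUR lay far from the other replicates in it. In it, 449 of 10010 genes in input and 374 of 9520 in footprints, those with a mean of at least 5 CPM, lay at least 2-fold from the mean of the other replicates. These counts were 142 and 314 in DMSO input replicates 2 and 3, 66 to 84 in trametinib input, 57 and 163 in DMSO footprint replicates 2 and 3 and 0 to 7 in trametinib footprints, so in input DMSO replicate 3 came close to replicate 1. Relative to the mean of DMSO replicates 2 and 3, replicate 1 held 2.97 times the PLAU input and 3.54 times the footprints. For LAMB3 these ratios were 4.06 and 4.76, and for PLAUR 2.02 and 2.52. PLAU thereby stood above 99.3% of tested genes in input and 99.6% in footprints. MMP14 was at 0.468 and 1.13 times, MYEOV at 0.901 and 1.66 times and S100A4 at 0.640 and 0.700 times. The cause of this difference was not tested, and each result is given with all libraries and without both libraries of DMSO replicate 1.

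**Figure D1:**
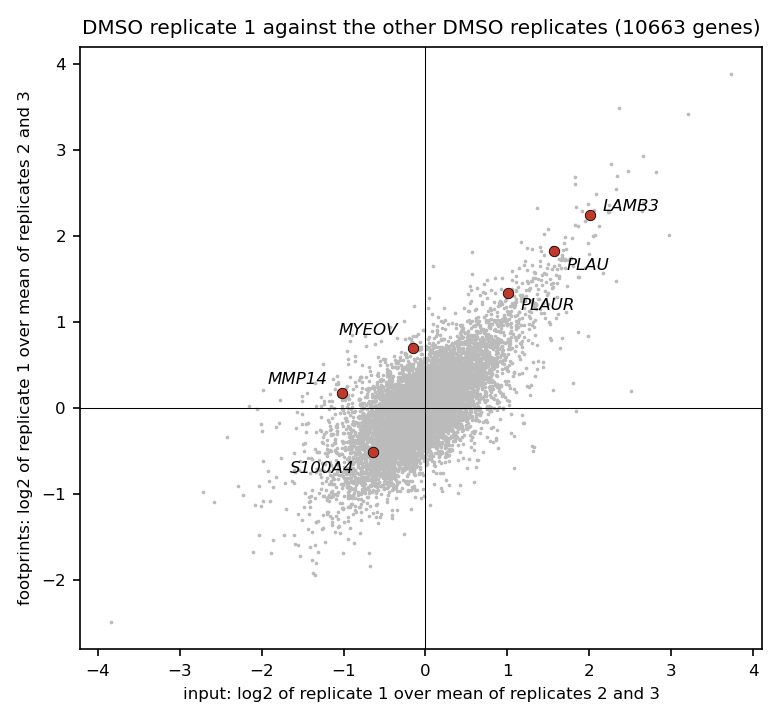
Each grey point is 1 of 10663 tested genes, with the log2 ratio of DMSO replicate 1 over the mean of DMSO replicates 2 and 3 in input (x axis) and footprints (y axis), and the 6 red points are the genes described. LAMB3, PLAU and PLAUR lie at the upper right, where replicate 1 was higher in both assays, and S100A4 lies below 0 in both.

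With all libraries, 2 of the 6 genes (S100A4 and MMP14) were called higher and 1 (MYEOV) lower in input at an edgeR adjusted p-value under 0.05, and the same calls were made in footprints. Of all tested genes, 15.4% were called higher and 16.8% lower in input, and 23.9% higher and 25.6% lower in footprints. Without DMSO replicate 1, PLAU and LAMB3 were called higher as well in both assays, which made 4 higher and 1 lower, beside 16.6% higher and 18.0% lower of all genes in input and 29.8% higher and 30.5% lower in footprints. Since the genes were chosen with these changes known, nothing is read from the counts. PLAUR was not called in any of these fits. MYEOV was the gene called lower in each of them. Whether the 6 genes lie downstream of ERK was not tested by these calls.

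**Figure D2:**
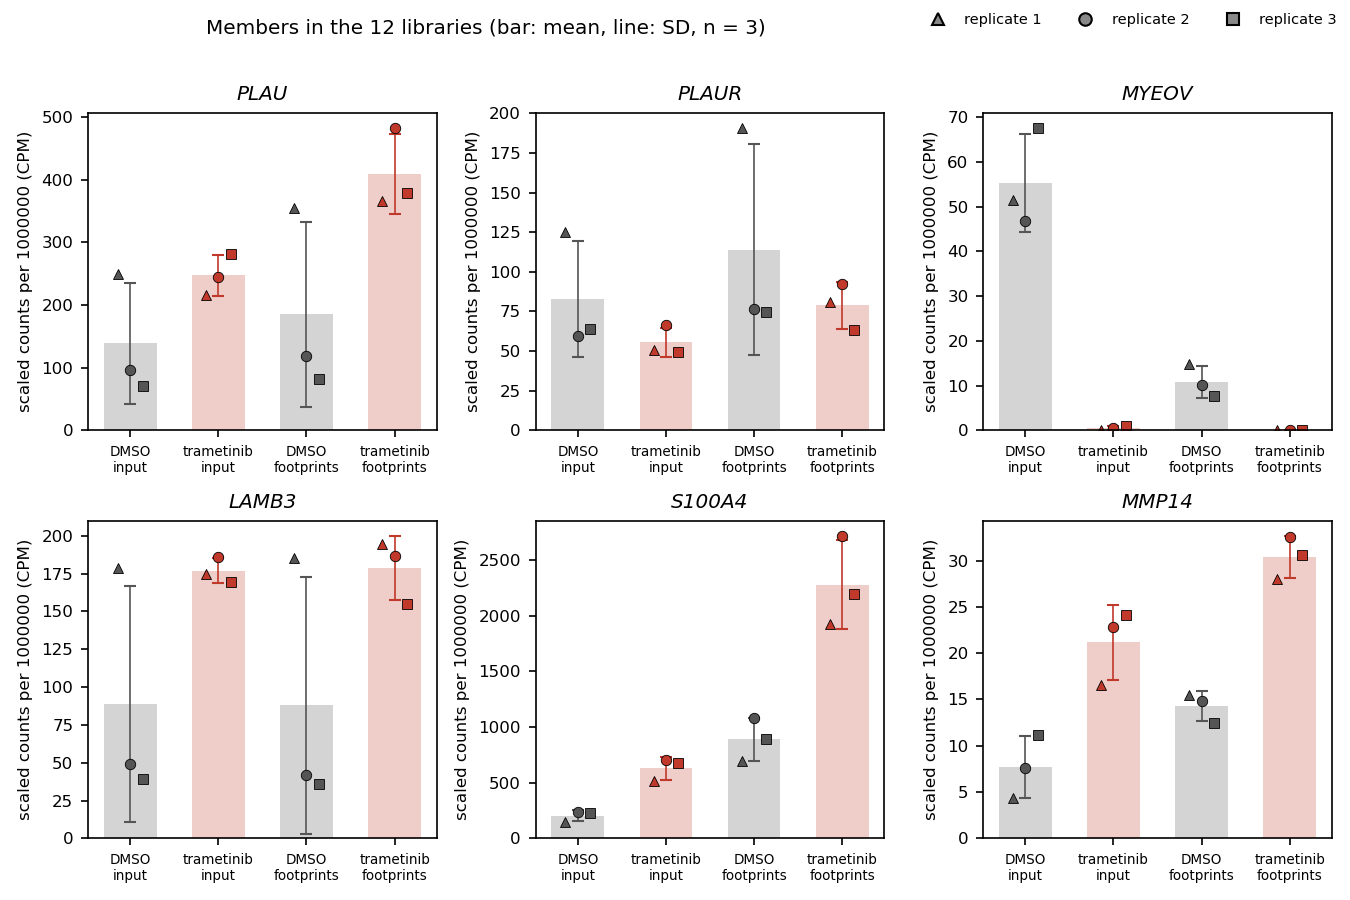
Scaled counts per 1000000 (CPM, y axis, linear from 0, a different scale in each panel) of each gene in the 4 groups, with bars for the mean, lines for the SD (n = 3) and symbols for the replicates. The triangle of DMSO replicate 1 sits at the level of the trametinib libraries for PLAU and LAMB3, above all others for PLAUR, and with the other DMSO libraries for MYEOV and S100A4.

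PLAU, the protease of the system, was higher in every trametinib library than in DMSO replicates 2 and 3, while against DMSO replicate 1 it was at a like level in input and slightly higher in footprints. Its input counts were 684, 267 and 179 in DMSO and 533, 557 and 642 in trametinib, and its footprint counts were 6004, 1145 and 1393 in DMSO and 7479, 7339 and 4995 in trametinib. After scaling, the 2 treatments overlapped in input, while in footprints every trametinib library, from 366 to 482 CPM, lay above the highest DMSO library at 355 CPM. Mean levels were 139 ± 96.5 and 247 ± 33.1 CPM in input and 185 ± 148 and 409 ± 63.9 CPM in footprints (SD, n = 3).

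The PLAU input change was 0.83 (SE 0.34, 95% interval 0.08 to 1.57), and without DMSO replicate 1 it was 1.55 (SE 0.17). The footprint change was 1.14 (SE 0.46) with all libraries and 2.04 (SE 0.16) without that replicate. The trametinib mean was 0.990 times DMSO replicate 1 alone in input and 1.15 times in footprints, against 2.95 and 4.08 times the mean of replicates 2 and 3. The size of the PLAU change thus depended on 1 of 3 control replicates. With the replicate number as a block, the PLAU footprint change was 1.45 and passed the threshold that it missed without the block. Same-numbered footprint libraries deviated together only weakly (r = 0.116, 0.132 and 0.295), and nothing is read from this call.

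PLAUR, the receptor, did not follow its ligand. Its input counts were 343, 165 and 161 in DMSO and 126, 151 and 113 in trametinib, and its footprint counts were 3229, 735 and 1286 in DMSO and 1661, 1405 and 835 in trametinib. Mean levels were 83.0 ± 36.6 and 55.6 ± 9.27 CPM in input and 114 ± 66.4 and 78.9 ± 14.7 CPM in footprints. The treatments overlapped in both assays, and the difference in means came from DMSO replicate 1.

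The PLAUR input change was -0.58 (95% interval -1.15 to -0.01) with all libraries and -0.16 (95% interval -0.55 to 0.23) without DMSO replicate 1. In footprints it was -0.53 (95% interval -1.31 to 0.24) and 0.07 (95% interval -0.23 to 0.36). The input interval with all libraries lay just below 0 and the other intervals included 0, and none reached the size of the changes of PLAU without the replicate.

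Inhibitors and partners of urokinase were compared as a list of 22 genes other than the members, of which 15 were tested. In input 7 of these were higher and 4 lower, with a median change of 0.42 against -0.00145 for all tested genes. In footprints 9 were higher and 4 lower (median 0.56 against -0.0129 for all genes). Calls over all tested genes stood at 15.4% higher and 16.8% lower for input, with 23.9% higher and 25.6% lower for footprints. These shares and all-gene medians are also the background for each list below. The lists were chosen with earlier results known, so no excess is read from any of them.

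LRP1, the clearance receptor, rose from 18.0 ± 7.42 to 42.3 ± 1.76 CPM in input (change 1.23, edgeR adjusted p = 0.00321) and from 4.57 ± 0.511 to 15.3 ± 1.29 CPM in footprints (change 1.75, edgeR adjusted p = 4.13e-05). MRC2, a collagen receptor that associates with the urokinase receptor, rose by 1.55 in input (edgeR adjusted p = 2.10e-05) and 1.52 in footprints (edgeR adjusted p = 0.000182). The tissue-type activator gene PLAT and the plasminogen-binding protein gene ANXA2 rose in both assays, PLAT by 0.82 and 0.79 and ANXA2 by 0.69 and 0.83. The input call of PLAT (edgeR adjusted p = 0.0203) was lost without DMSO input replicate 2 (edgeR adjusted p = 0.0714) and without any 1 of the trametinib input libraries (edgeR adjusted p = 0.0572 to 0.0643). S100A10, the partner of ANXA2 in plasminogen binding, was at -0.35 and -0.09 and did not pass (edgeR adjusted p = 0.292 and 0.769). SERPINE2, an inhibitor of urokinase, fell by 0.64 in input (edgeR adjusted p = 0.0327) and was at 0.12 in footprints (edgeR adjusted p = 0.683). When DMSO replicate 1 was left out, its input change no longer passed, at -0.44, and its footprint change of 0.50 did. The input call was also lost without any 1 of the trametinib input libraries (edgeR adjusted p = 0.0527 to 0.156). The inhibitor gene SERPINB2 had 0 counts in 11 of 12 libraries and 7 in trametinib footprint replicate 2. LRP1, MRC2, PLAT and ANXA2 were thus called higher in both assays with and without DMSO replicate 1, PLAT in input less stably than the others.

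LAMB3, a chain of laminin-332, showed the same dependence as PLAU and more strongly. Its input counts were 489, 135 and 98 in DMSO and 432, 424 and 387 in trametinib, and its footprint counts were 3142, 404 and 617 in DMSO and 3983, 2837 and 2047 in trametinib. Mean levels were 88.8 ± 77.8 and 177 ± 8.38 CPM in input and 87.8 ± 84.7 and 179 ± 21.1 CPM in footprints. DMSO replicate 1 lay within the trametinib range in both assays, and the other DMSO libraries lay far below it.

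The LAMB3 input change was 0.99 (SE 0.41) with all libraries and 2.00 (SE 0.17) without DMSO replicate 1. In footprints it was 1.02 (SE 0.54) and 2.21 (SE 0.12). Relative to DMSO replicate 1 alone, the trametinib mean was 0.991 times in input and 0.963 times in footprints. With the replicate number as a block, the LAMB3 footprint change was 1.44 and was called, from which likewise nothing is read.

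LAMA3, which pairs with LAMB3 in laminin-332, and the receptors of this laminin differed in direction. LAMA3 rose from 8.21 ± 2.73 to 38.0 ± 7.33 CPM in input (change 2.20, edgeR adjusted p = 5.22e-05) and by 1.61 in footprints (edgeR adjusted p = 0.000436), and its DMSO and trametinib libraries did not overlap. ITGA6 and ITGB4, which form the laminin receptor of hemidesmosomes, fell in input, ITGA6 by 1.97 (edgeR adjusted p = 1.05e-05) and ITGB4 by 0.62 (edgeR adjusted p = 0.0177). Their footprints fell by 2.00 and 0.57. The calls of ITGB4 were lost without trametinib replicate 1 or 2 in input (edgeR adjusted p = 0.080 and 0.0709) and without replicate 1 or 3 in footprints (edgeR adjusted p = 0.0548 and 0.070). ITGA3, of the laminin-binding integrin of focal contacts, was at -0.49 in input and 0.04 without DMSO replicate 1 and passed in neither fit (edgeR adjusted p = 0.199 and 0.846). The hemidesmosomal collagen gene COL17A1 was at 0.69 in input and 0.06 in footprints and did not pass.

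Of 21 laminin and laminin receptor genes other than LAMB3, 19 were tested. In input 8 were higher and 3 lower (median 0.63), and in footprints 10 were higher and 3 lower (median 0.55). The background for input was 15.4% of all tested genes called higher and 16.8% lower (median -0.00145). For footprints it was 23.9% and 25.6% (median -0.0129). LAMA2, the laminin chain of muscle and nerve, is named after its values were seen. It had the lowest change among these 19 genes, -4.40 in input (SE 0.52, edgeR adjusted p = 2.20e-06). Leaving out DMSO replicate 1 gave 12 higher and 3 lower in input and 11 higher and 3 lower in footprints. In the edgeR fits with TMM scaling, the count filter and no block, LAMA3 was therefore called higher with and without DMSO replicate 1. In these fits LAMB3 was called only against the pair of DMSO replicates 2 and 3. Both subunits of the hemidesmosomal receptor were lower with and without replicate 1.

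**Figure D3:**
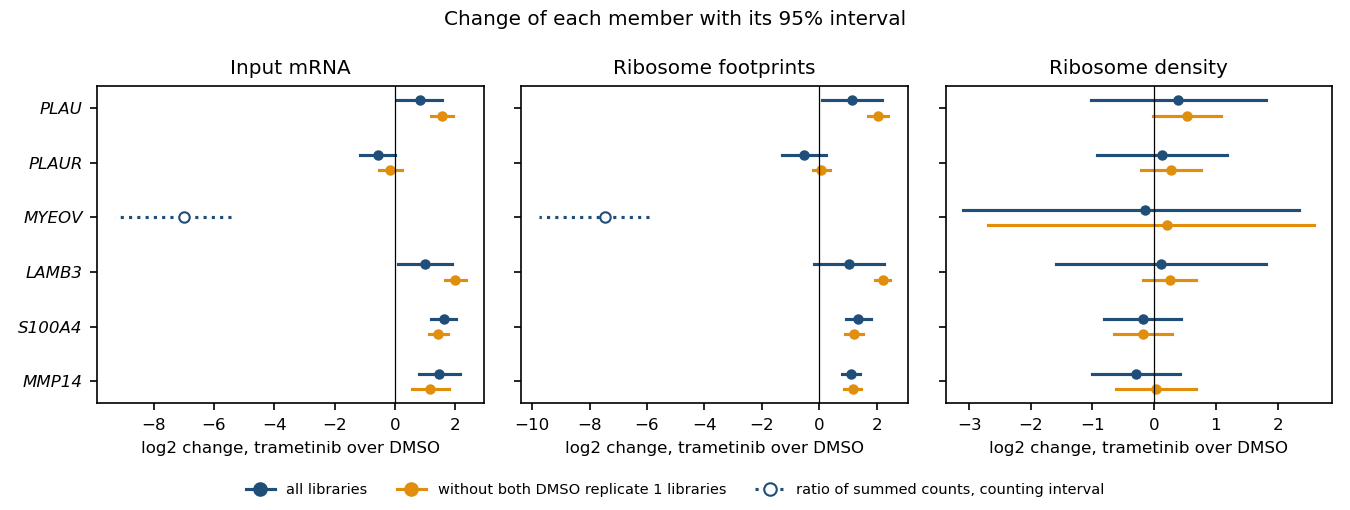
Log2 change, trametinib over DMSO (x axis), of each gene in input, footprints and ribosome density, as points with 95% intervals from edgeR for all libraries (blue) and without both DMSO replicate 1 libraries (orange), and as the ratio of summed counts with a counting interval for MYEOV (open circles, dotted). PLAU and LAMB3 move right and narrow when replicate 1 is left out, S100A4 and MMP14 stay above 0 in input and footprints, and all density intervals include 0.

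MMP14, the least abundant of the 6 genes per coding length in DMSO, was higher in trametinib. Its input counts were 12, 21 and 28 in DMSO and 41, 52 and 55 in trametinib, and its footprint counts were 262, 143 and 214 in DMSO and 573, 495 and 405 in trametinib. Mean levels were 7.71 ± 3.37 and 21.2 ± 4.03 CPM in input and 14.3 ± 1.60 and 30.4 ± 2.25 CPM in footprints. Every trametinib library lay above every DMSO library in both assays.

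The MMP14 change was 1.46 in input (SE 0.32, 95% interval 0.78 to 2.15) and 1.09 in footprints (SE 0.14, 95% interval 0.78 to 1.40). Leaving out DMSO replicate 1 gave 1.18 and 1.17. DMSO input replicate 1, with 12 counts, was the lowest library.

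Other metalloproteinases, their inhibitors and regulators made up 28 genes, of which only 8 reached the count filter. In input 3 were higher and 1 lower (median 0.46), and in footprints 5 were higher and 1 lower (median 0.88). MMP7, the matrilysin of intestinal epithelium, rose from 3.88 ± 0.424 to 37.0 ± 13.9 CPM in input (change 3.24, edgeR adjusted p = 1.02e-05) and by 4.19 in footprints (edgeR adjusted p = 5.52e-06). TIMP2, the inhibitor that together with MMP14 activates MMP2, rose by 0.90 in input (edgeR adjusted p = 0.00951) and 1.27 in footprints (edgeR adjusted p = 3.32e-05), and its input call was lost without trametinib input replicate 3 (0.64, edgeR adjusted p = 0.0628). TIMP1 fell by 1.12 in input (edgeR adjusted p = 0.00602) and was at -0.82 in footprints (edgeR adjusted p = 0.0523), and RECK, a membrane inhibitor of MMP14, was at 0.12 and 0.15 and did not pass. BSG, the inducer of metalloproteinases in neighboring cells, was at 0.25 in input and rose by 0.65 in footprints (edgeR adjusted p = 0.00293). MMP2, a substrate of MMP14, had 2 input counts in DMSO and 1 in trametinib over all libraries, and MMP1 had 1 and 0. The collagenase gene MMP13 had 2 and 0 input counts, and the gelatinase gene MMP9 had 3 and 6. At this depth no change of these 4 genes was detectable in input. In footprints MMP9 had 35 counts in DMSO and 42 in trametinib, or 0.79 ± 0.19 and 0.83 ± 0.21 CPM (SD), and was not tested.

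S100A4, the most abundant of the 6 genes per coding length, was higher in trametinib. Its input counts were 407, 653 and 572 in DMSO and 1264, 1596 and 1535 in trametinib, and its footprint counts were 11705, 10411 and 15322 in DMSO and 39298, 41290 and 28993 in trametinib. Mean levels were 204 ± 48.4 and 628 ± 102 CPM in input and 889 ± 196 and 2276 ± 401 CPM in footprints. In both assays the lowest trametinib library lay above the highest DMSO library.

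The S100A4 change was 1.62 in input (SE 0.19) and 1.36 in footprints (SE 0.19). S100A4 was lowest in DMSO replicate 1, without which it was 1.44 and 1.21. Among 18 other S100 genes 8 were tested, of which 0 were higher and 2 lower in input (median -0.10) and 2 were higher and 1 lower in footprints (median 0.04). S100A6, a close paralog whose gene lies 7.4 kb away, was at 1105 ± 251 CPM in DMSO input and 1233 ± 53.4 CPM in trametinib input. Its change of 0.16 did not pass (edgeR adjusted p = 0.489), and at 0.35 it did without DMSO replicate 1 (edgeR adjusted p = 0.0461). S100P had 7 summed input counts in DMSO and 0 in trametinib, below the filter.

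MYEOV was nearly absent after trametinib. Its input counts were 141, 129 and 170 in DMSO and 0, 1 and 2 in trametinib, and its footprint counts were 250, 98 and 131 in DMSO and 1, 1 and 1 in trametinib. The 0 in trametinib input replicate 1 allows up to 3 counts in that library. Mean levels were 55.3 ± 10.9 and 0.439 ± 0.439 CPM in input and 10.9 ± 3.62 and 0.0634 ± 0.0135 CPM in footprints. DMSO replicate 1 lay between the other DMSO libraries in input and above them in footprints, and MYEOV was called lower with and without it.

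Over the groups, 440 input counts in DMSO stood against 3 in trametinib, a depth-corrected ratio of 128.6 (95% counting interval 43.7 to 626). For footprints, 479 counts stood against 3, a ratio of 178.5 (95% counting interval 60.7 to 869). These intervals cover counting error only and not the spread between replicates, and with so few counts the fitted fold change is not given.

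The 11q13 neighborhood of MYEOV, which is amplified together in several cancers, held genes called in either direction, and a joint shift was not tested. CCND1, the cyclin D1 gene, begins 299.5 kb beyond MYEOV and fell from 214 ± 36.6 to 52.6 ± 5.36 CPM in input (change -2.02, edgeR adjusted p = 2.67e-06) and by 2.33 in footprints (edgeR adjusted p = 1.46e-06). FGF19, an intestinal growth factor gene named after its values were seen, lies 356.6 kb beyond MYEOV and had a change of -5.10 in input (SE 0.89, edgeR adjusted p = 0.000103). Among the 12 tested genes of this list of 16, 1 was higher and 3 lower in input (median -0.13), and 1 was higher and 6 lower in footprints (median -0.29). In input CPT1A was the gene called higher, and IGHMBP2 was called lower beside CCND1 and FGF19. These 3 were also called lower in footprints, where a different gene was called higher.

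**Figure D4:**
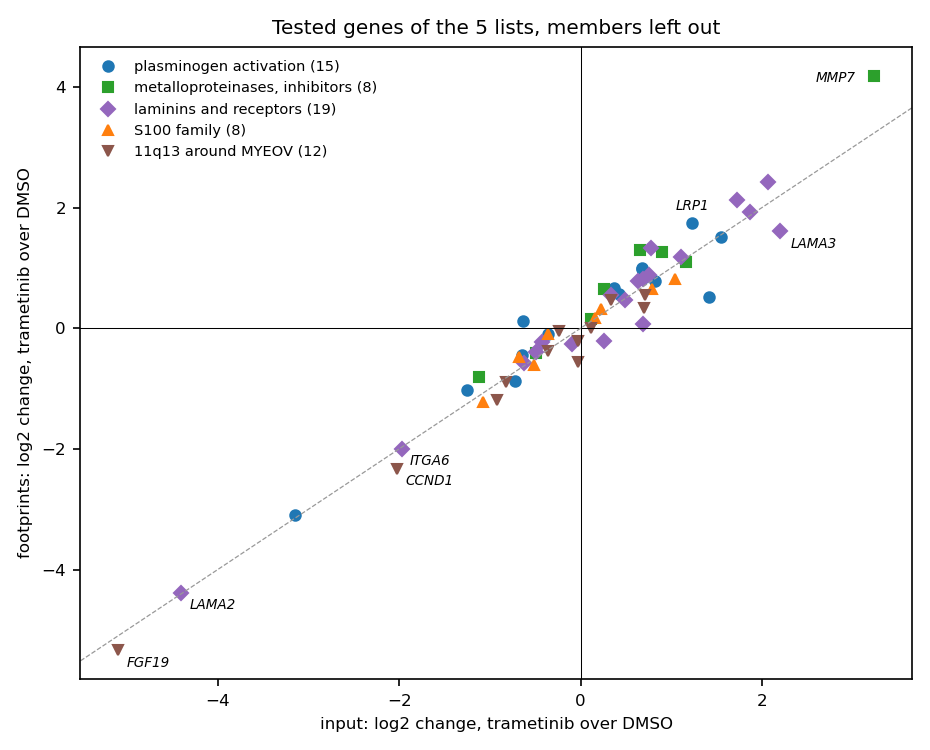
Log2 change in input (x axis) against log2 change in footprints (y axis) for the tested genes of 5 lists, with 15 genes of plasminogen activation, 8 of metalloproteinases and their inhibitors, 19 of laminins and receptors, 8 of the S100 family and 12 of 11q13, the 6 genes themselves left out. The dashed line marks equal change, the points lie close to it from FGF19 and LAMA2 at the lower left to MMP7 at the upper right, and ITGA6 and CCND1 are below 0 in both assays.

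Ribosome density, footprints divided by input, asks whether translation changed beyond mRNA abundance. None of the 6 genes was called higher or lower (edgeR adjusted p from 0.908 to 0.995), beside 0.0938% of all tested genes called higher and 0.816% lower. This test uses the same libraries as the choice of genes. In replicates 1, 2 and 3 the footprint to input ratio of PLAU was 1.47, 1.26 and 1.20 in DMSO and 1.85, 2.14 and 1.48 in trametinib. The trametinib values lay above those of DMSO, the lowest by a small margin.

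The density change of PLAU was 0.39 with all libraries (95% interval -1.03 to 1.82, edgeR adjusted p = 0.948) and 0.53 without DMSO replicate 1 (95% interval -0.01 to 1.08, edgeR adjusted p = 0.502). LAMB3 was at 0.11 (95% interval -1.60 to 1.81) and PLAUR at 0.12 (95% interval -0.93 to 1.18). S100A4 was at -0.19 (95% interval -0.81 to 0.44) and MMP14 at -0.30 (95% interval -1.01 to 0.42), a value that was 0.03 without DMSO replicate 1. For MYEOV the interval, -3.10 to 2.34, was too wide to show whether ribosomes left the remaining mRNA. With that replicate left out, 0 of the 6 genes were called, beside 0.197% of all genes higher and 1.21% lower. With all libraries the unadjusted p-value was under 0.05 for 0 of the 6 genes and for 939 of all tested genes, and DESeq2 and limma also called 0 of the 6.

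Of the other tested genes of these 5 lists, 0 were called for ribosome density with all libraries. Without DMSO replicate 1, SERPINE2 was called higher (change 0.98, SE 0.21, edgeR adjusted p = 0.0223). With all libraries its change was 0.84 and did not pass (edgeR adjusted p = 0.460).

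In untreated cells the 6 genes differed widely in ribosome density, a measure that their choice did not use. Footprints over input in DMSO stood at 4.50 for S100A4, above 99.0% of tested genes, and at 1.93 for MMP14, above 86.0%. PLAUR and PLAU, at 1.42 and 1.37, stood above 71.1% and 69.1% of genes, and LAMB3, at 1.03, was in the middle of all genes (51.5%). MYEOV had the lowest value, 0.204, above 2.62% of genes. The 10th and 90th percentiles of all tested genes were 0.381 and 2.19. In DMSO replicates 1, 2 and 3 the ratio of MYEOV was 0.297, 0.223 and 0.119, against 4.82, 4.67 and 4.12 for S100A4, without overlap. The SEs on the log2 scale were 0.21 for S100A4, 0.23 for MYEOV, 0.26 for MMP14, 0.34 for PLAUR, 0.47 for PLAU and 0.57 for LAMB3. For MMP14 the ratio was 3.66, 1.99 and 1.18 in DMSO replicates 1, 2 and 3. The order of MMP14, PLAUR, PLAU and LAMB3 is therefore within error.

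**Figure D5:**
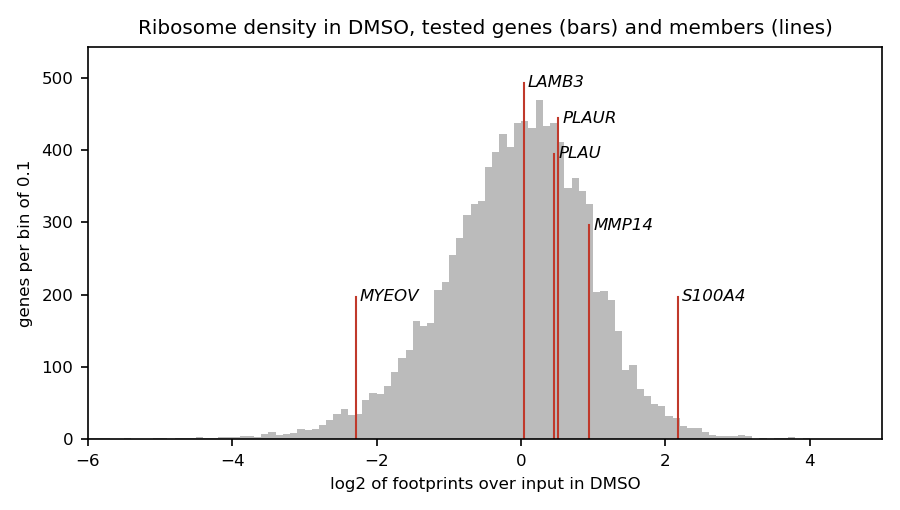
Histogram of the log2 ratio of footprints over input in DMSO for 10663 tested genes (bars, genes per bin of 0.1 on the y axis), with red lines at the 6 genes, whose heights carry no value. MYEOV lies in the left tail and S100A4 in the right tail, with LAMB3 near the center.

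Per coding length, S100A4 (303 coding bases) had 674 ± 160 CPM per kb in DMSO input, PLAU (1293) had 108 ± 74.7, PLAUR (1005) 82.6 ± 36.4 and MYEOV (939) 58.9 ± 11.6. LAMB3 (3516) had 25.3 ± 22.1 and MMP14 (1746) 4.41 ± 1.93. In DMSO footprints the order was S100A4 at 2933 ± 646, PLAU at 143 ± 115, PLAUR at 113 ± 66.1, LAMB3 at 25.0 ± 24.1, MYEOV at 11.6 ± 3.85 and MMP14 at 8.17 ± 0.914 CPM per kb. PLAU and PLAUR did not differ beyond their spread in either assay, nor did LAMB3 and MYEOV in footprints, where the SDs of PLAU and LAMB3 are as large as they are because of DMSO replicate 1. In trametinib footprints S100A4 was at 7513 ± 1325, PLAU at 316 ± 49.4, PLAUR at 78.5 ± 14.6, LAMB3 at 50.8 ± 6.002, MMP14 at 17.4 ± 1.29 and MYEOV at 0.0676 ± 0.0144 CPM per kb.

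The genes with the most similar pattern were found by the root mean square difference of log2 CPM, centered within each assay, over the 12 libraries. LAMB3 was the nearest of all tested genes to PLAU, and PLAU the nearest to LAMB3, at a difference of 0.232. The next nearest to PLAU were NFIL3 and TCP11L2 (0.235 and 0.239), and to LAMB3 TCP11L2 and KRT7 (0.284 and 0.289). S100A14, HYOU1 and ITGA3 were nearest to PLAUR (0.128 to 0.146), and EPHA2, AURKB and H2BC11 to MYEOV (0.366 to 0.473). NLRC5, KANK2 and CYS1 were nearest to S100A4 (0.102 to 0.171), with MMP14 at 0.254 in rank 50, and SLC43A2, NUDT18 and PLEKHN1 were nearest to MMP14 (0.151 to 0.158). PLAU and PLAUR, the ligand and its receptor, differed by 0.889, which put PLAUR in rank 5052 from PLAU. These distances include the deviation of DMSO replicate 1, which PLAU, LAMB3 and PLAUR share.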

How the data were processed

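Per the labels and the study's methods, the authors removed adapters, discarded reads aligning to rRNA and tRNA with Bowtie 1.2.2, mapped the rest to the basic Gencode transcripts of GRCh38, and counted reads inside open reading frames of 1 gene symbol. Per library, the deposited table holds raw counts and a signal, which is the count divided by a size factor, with the authors' log2 fold changes and p-values from DESeq2 1.46.0, which were not used. Size factors recomputed here matched in 12 of 12 libraries (tolerance 0.001), and no pair of replicates agreed within sampling noise (chi-square per degree of freedom 3.53 to 129).

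The raw counts were fitted with edgeR 4.0.16 in R 4.3.3 (TMM scaling, quasi-likelihood test, Benjamini-Hochberg adjustment over 10663 genes, threshold 0.05), tested on simulated data beforehand. Input and footprints were fitted on 6 libraries each, and ribosome density as the interaction of assay and treatment over 12. Because libraries are scaled to each other, a change of all mRNAs alike cannot be seen. DESeq2 1.42.0 and limma 3.58.1 were alternatives.

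The members, partners and gene lists were chosen with earlier results of these data known. The text names the 6 members, partners by textbook role whatever their values, list genes called for ribosome density, and for each member the 3 nearest genes. Some partners are not reported here, although the list counts include them. LAMA2, FGF19, COL3A1, CPT1A and IGHMBP2 were named after their values were seen. Same-numbered footprint libraries deviated together weakly across treatments (r = 0.116, 0.132 and 0.295 over 7139 genes), so the replicate block is given where it changes a call.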

Additional observations from a re-analysis of the deposited data

How the results depend on the processing

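No called value changed direction under any alternative. Of 306 values for the 6 genes, 305 were counted as unchanged. For input and footprint changes this meant a move smaller than the SDs of the 2 groups combined on the log2 scale, which are wide for PLAU and LAMB3. For density changes it meant only that no call changed, and for density in DMSO that the percentile moved little. The exception was the footprint change of MYEOV with limma-trend. Changes that were not called did cross 0, with PLAU density from -0.33 to 1.29, LAMB3 density from -0.91 to 1.29 and PLAUR footprints from -0.75 to 0.07 when a single library was left out. Of 1127 values for partner genes 1074 kept their side of the threshold, while 32 newly passed it, TIMP1 footprints among them, and 21 no longer passed, among them MMP15 and ITGB4 footprints and SERPINE2, PLAT, ITGB4 and TIMP2 input. The count of the 6 genes called higher in input rose from 2 to 4 without a filter on low counts, with limma-trend and with the replicate block, and to 4 without both DMSO replicate 1 libraries, an alternative chosen after seeing the data. Without a filter, 2 genes were called lower in input, MYEOV and also PLAUR (change -0.60), so the missing input call of PLAUR depended on the filter. In footprints this count rose from 2 to 3 with library totals and without a filter on low counts. It rose to 4 with limma-trend, with the replicate block and without both DMSO replicate 1 libraries. Leaving out each library in turn gave 2 to 4 of the 6 genes higher in input and 2 to 4 in footprints, with 4 only without DMSO replicate 1. In input the same-numbered libraries correlated at 0.0634, 0.0466 and 0.359. The last value is above those of the footprints, so a pairing by number is uncertain in both assays. The replicate block changed no other call among the 6 genes.

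Genes with higher ribosome density numbered 10 of 10663, and 5 with median-of-ratios scaling, 27 with library totals, 6 with a filter on either kind of library, 37 with DESeq2, 31 with a replicate block for each input and footprint pair and 21 without DMSO replicate 1. Leaving out each library in turn gave 1 to 12. Genes with lower density numbered 87, and 150 with DESeq2 and 49 to 101 with a library left out. Genes with higher input numbered 1641, and 1069 to 1767 with a library left out. The cause of these differences was not tested. The depth of the input libraries, at most 2845568 counts, limits the density of MMP14. The density of MYEOV is limited by its 3 summed counts in trametinib input and 3 in trametinib footprints.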
